A study of Mus musculus with 3 samples.

Results

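The 10 genes described here encode the secreted ligands and the receptor kinases of vascular endothelial growth factor (VEGF) and angiopoietin signalling, and were taken by name from the 50262 genes of the deposited table. They are the VEGF-family ligands Vegfa, Vegfb, Vegfc and Pgf, the VEGF receptors Flt1 (VEGFR1), Kdr (VEGFR2) and Flt4 (VEGFR3), the angiopoietins Angpt1 and Angpt2, and their receptor Tek (TIE2). All 10 had unique molecular identifiers (UMIs, tags that count captured transcripts) in the 17781 cells analysed. The counts ran from 68 UMIs of Pgf and 72 of Vegfc to 2439 of Vegfb and 3106 of Flt1.

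VEGF-A binds KDR on endothelial cells, the cells that line blood vessels, and is the main signal for vessel sprouting, whereas FLT1 binds VEGF-A, VEGF-B and placental growth factor and can hold ligand away from KDR. VEGF-C is the ligand of FLT4 and is best known from lymphatic vessels. ANGPT1 from cells around the vessel keeps TEK active and the vessel quiet, and ANGPT2, made by sprouting endothelium, can oppose it. Glioblastoma, a malignant brain tumor, is known for dense and abnormal vessels.

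The study profiled single cells of mouse brain tumors with inDrop, a droplet method, after sorting viable cells by CD45, the protein of the leukocyte gene Ptprc. All mice carried a conditional human wild-type EGFR transgene, were Cdkn2a-/-, had a conditional luciferase reporter and were kept on a mixed background. Tumors arose after a Cre lentivirus was injected into the striatum of adult animals, so only cells reached by the virus and their progeny carry the recombined alleles. The CD45+ and CD45- sorts came from the same early, medium and late tumor samples, 1 sample a stage. The stage called late here is named large in the deposited labels. Where cells were few, 2 mice or tumors were pooled for a sample, as the methods state for early tumors. The 3 sequencing runs each held libraries of several stages and both sorts, 24 libraries in all, and normal brain was not analysed here.

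The 6 sums of 1 stage and 1 sort held 1603 to 5091 cells and 5381839 to 10808099 UMIs, with a median of 1964 to 3078.5 UMIs per cell. Of 18335 distinct cell barcodes, 2117 were seen in more than 1 library, where 144020 combinations were possible. Levels are given as CPM, UMIs per 1000000 UMIs of the cells summed. Ptprc was at 227 to 250.2 CPM in the CD45+ sums and at 3.59 to 15.9 in the CD45- sums, as the sort labels say. Human EGFR was at 7.28, 706 and 1220 CPM in early, medium and late CD45- cells and at 1.85, 271 and 84.7 in the CD45+ cells. Cells were grouped by marker genes without using the genes described here, and each group is named after the cell type it resembles ("-like") or, where markers were too few or pointed to more than 1 type, after its leading gene. 3 such groups were transgene-rich, with human EGFR in at least 50% of their cells, and are called the Gpr17-led, Itga8-led and AI506816-led clusters. The Gpr17-led cluster met 11 of 11 oligodendrocyte progenitor markers, with more markers of committed oligodendrocyte precursors among its leading genes.

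Endothelial receptor genes are known targets of ETS-family transcription factors, whose binding sites share the core GGAA. The 250 bases before the RefSeq start of 3 receptor genes are printed because their transcripts mark the vessel cells described below. Capitals mark GGAA or its complement TTCC, and the bases are written 5′ to 3′ on the gene's own strand in build GRCm38.p6. The Flt1 window is chr5:147726012-147726261 on the minus strand, the Kdr window, of 247 bases, is chr5:75978459-75978705 on the minus strand, and the Tek window is chr4:94739039-94739288 on the plus strand.
Flt1: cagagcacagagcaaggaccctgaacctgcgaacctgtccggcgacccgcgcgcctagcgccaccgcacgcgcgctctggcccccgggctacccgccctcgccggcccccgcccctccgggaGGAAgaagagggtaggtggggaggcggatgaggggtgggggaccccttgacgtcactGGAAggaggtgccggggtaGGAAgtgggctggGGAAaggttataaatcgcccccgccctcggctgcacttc
Kdr: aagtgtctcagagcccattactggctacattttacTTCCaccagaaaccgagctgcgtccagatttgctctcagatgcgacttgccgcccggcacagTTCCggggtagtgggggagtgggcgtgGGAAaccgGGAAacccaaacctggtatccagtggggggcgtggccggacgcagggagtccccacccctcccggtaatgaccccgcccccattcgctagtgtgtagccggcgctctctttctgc
Tek: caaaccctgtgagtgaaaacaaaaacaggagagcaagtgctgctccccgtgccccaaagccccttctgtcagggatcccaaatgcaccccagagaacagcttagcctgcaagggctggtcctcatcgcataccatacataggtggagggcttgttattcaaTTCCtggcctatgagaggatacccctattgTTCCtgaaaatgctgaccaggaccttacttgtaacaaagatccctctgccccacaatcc
The Flt1 and Kdr windows each held 4 such matches and the Tek window 2. Of 32851 RefSeq promoter windows, 93.4% held at least 1 match, the median was 3, and 33.4% held at least 4, so these letters do not set the 3 genes apart. RefSeq windows were found for 8 of the 10 genes.

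In the whole sorts the receptors and Angpt2 were mostly in CD45- cells, while Vegfa and Vegfb were in both. CPM are not scaled by gene length, so they are compared between cells and not between genes. The 3 tumor samples, early, medium and late, were the replicates of each sort. In these sums a change in the number of cells of a type and a change in RNA per cell cannot be told apart.

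**Figure D1:**
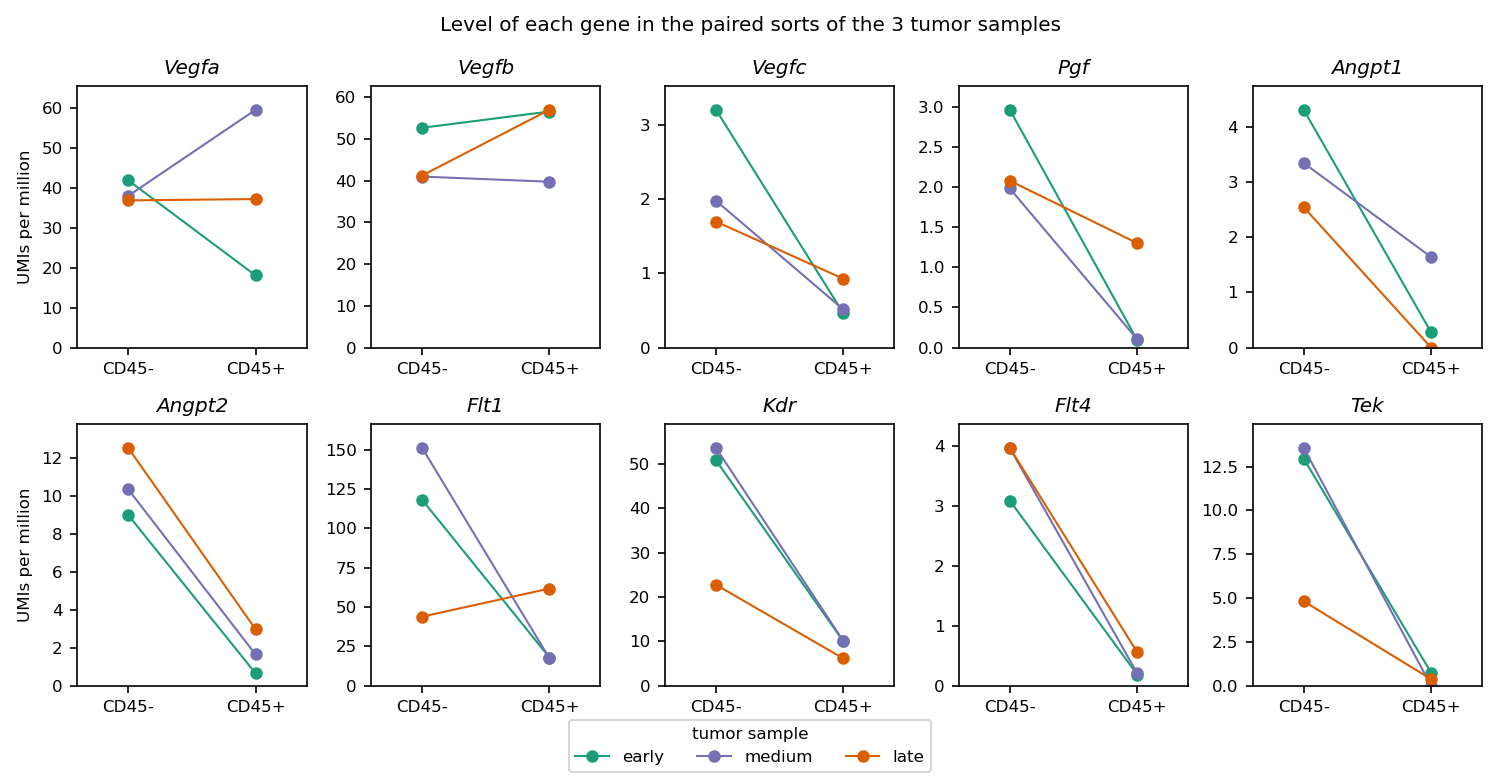
CPM (y axis, linear, from 0) of each of the 10 genes in the CD45- and CD45+ sorts (x axis), with a line joining the sorts of 1 tumor sample. Kdr, Flt4, Angpt2 and Tek were lower in the CD45+ sort in 3 of 3 samples, whereas the Vegfa lines cross and the late Flt1 line rises from 43.8 to 61.7.

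Vegfa (ENSMUSG00000023951, chr17:46016993-46032369) was at 41.9, 38.0 and 36.8 CPM in early, medium and late CD45- cells and at 18.0, 59.5 and 37.2 in CD45+ cells. The CD45- sums lay close together and the CD45+ sums on both sides of them, and the log2 fold change of CD45+ over CD45- was 0.19 (SE 0.38), with an adjusted p of 0.706 in edgeR's quasi-likelihood test. Vegfb (ENSMUSG00000024962, chr19:6982473-6987651) was at 52.7, 41.0 and 41.3 in CD45- cells and at 56.6, 39.8 and 57.0 in CD45+ cells. The sums of both sorts overlapped, and the fold change of 0.54 (SE 0.20) did not pass the adjusted threshold (edgeR adjusted p 0.0575).

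The scarcer ligands were mainly CD45-. Vegfc (ENSMUSG00000031520, chr8:54077606-54187096) was at 3.21, 1.98 and 1.70 CPM in CD45- cells and at 0.463, 0.514 and 0.929 in CD45+ cells, and Pgf (placental growth factor, ENSMUSG00000004791, chr12:85166635-85177790) at 2.96, 1.98 and 2.08 against 0.0925, 0.103 and 1.30. Angpt1 (ENSMUSG00000022309, chr15:42424723-42676977) was at 4.32, 3.35 and 2.55 against 0.278, 1.65 and 0. In each of these 3 genes the CD45- values lay above all the CD45+ values, yet none passed the adjusted threshold, with edgeR log2 fold changes of -1.54, -2.29 and -2.23 and adjusted p of 0.0530, 0.0596 and 0.0574. These calls depended on the test: DESeq2 called Pgf and Angpt1, and edgeR without TMM scaling called all 3. They also depended on single samples: without the late sample Pgf was at -4.14 (edgeR adjusted p 0.00883), and without the medium sample Angpt1 was at -4.04 (adjusted p 0.00673), whereas without the early sample the 3 adjusted p were 0.248 to 0.294. With cells of the other sort's classes removed, edgeR called Vegfc (-2.72, adjusted p 0.0114) but not Pgf or Angpt1 (adjusted p 0.109 and 0.0773). Angpt1 overlaps the antisense gene Gm17473, and the counting was not stated to use strand.

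Angpt2 (ENSMUSG00000031465, chr8:18690263-18741562) was at 9.01, 10.4 and 12.6 CPM in CD45- cells and at 0.648, 1.65 and 2.97 in CD45+ cells. It was lower in CD45+ cells by a log2 fold change of -2.40 (SE 0.42, edgeR adjusted p 0.00295), in 3 of 3 samples. Angpt2 lies within Mcph1, which runs on the other strand, so its reads may include some of that gene.

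Among receptors, Kdr (ENSMUSG00000062960, chr5:75932827-75978458) was at 50.9, 53.7 and 22.8 CPM in early, medium and late CD45- cells and at 9.99, 10.1 and 6.13 in CD45+ cells. Flt4 (ENSMUSG00000020357, chr11:49609263-49652739) was at 3.09, 3.96 and 3.97 against 0.185, 0.206 and 0.557, and Tek (ENSMUSG00000006386, chr4:94739289-94874976) at 13, 13.6 and 4.82 against 0.740, 0 and 0.372. The sorts of these 3 receptors did not overlap. In edgeR, Kdr was lower in CD45+ cells by -1.87 on the log2 scale (SE 0.22, adjusted p 0.000520), Flt4 by -3.27 (SE 0.53, adjusted p 0.00212) and Tek by -4.52 (SE 0.72, adjusted p 0.00235).

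Flt1 (ENSMUSG00000029648, chr5:147561604-147726011) was the receptor whose sort values overlapped. It was at 118, 151 and 43.8 CPM in early, medium and late CD45- cells and at 17.9, 17.4 and 61.7 in CD45+ cells. The late sample stood apart: its CD45- value was the lowest of the CD45- sums, its CD45+ value was above it, and the edgeR log2 fold change over 3 samples, -1.51 (SE 0.72), had an adjusted p of 0.133. Without the late sample it was -2.55, with an adjusted p of 0.000739 in edgeR, and DESeq2 called it on all samples (adjusted p 0.0370). Without the early or the medium sample the fold change was -0.85 or -0.79 (edgeR adjusted p 0.5403 and 0.5535). Endothelial-like cells were 5.58%, 7.80% and 2.95% of early, medium and late CD45- cells, and the summed endothelial markers there were at 577, 724 and 342 CPM.

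In all, 0 of the 10 genes were higher and 4 were lower in CD45+ cells, where 20.4% of the 18433 genes tested were called higher and 25.7% lower. At an unadjusted p under 0.05, 1 gene was higher (Vegfb) and 7 were lower, and DESeq2 called 0 higher. The median log2 fold change of the 10 genes was -2.05, beside -0.04 over all genes tested. The labels do not say whether the 3 samples differ in other ways than stage. With sums paired by tumor sample, the p-values measure how the sort difference varied over these samples, on 2 residual degrees of freedom. The dispersion behind them is partly shared over all genes, so they do not rest on these 3 samples alone.

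By cell group, Vegfa in the CD45- sort was highest per UMI in astrocyte-like cells and in glioma or oligodendrocyte progenitor-like cells, and not in the transgene-rich groups. Astrocytes ensheath brain vessels with their end-feet. The astrocyte-like level was 279 CPM (95% exact Poisson interval 229 to 336, 109 UMIs in 168 cells) and the progenitor-like level 192 (162 to 225, 151 UMIs in 266 cells), and 1.88% of these progenitor-like cells had a human EGFR UMI. These intervals, and all others below, cover counting error only, and those of the leading pair do not overlap. Within runs 1, 2 and 3 the astrocyte-like level was 220, 353 and 211 and the progenitor-like level 171, 191 and 207, so the order held in each run but by little in run 3.

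**Figure D2:**
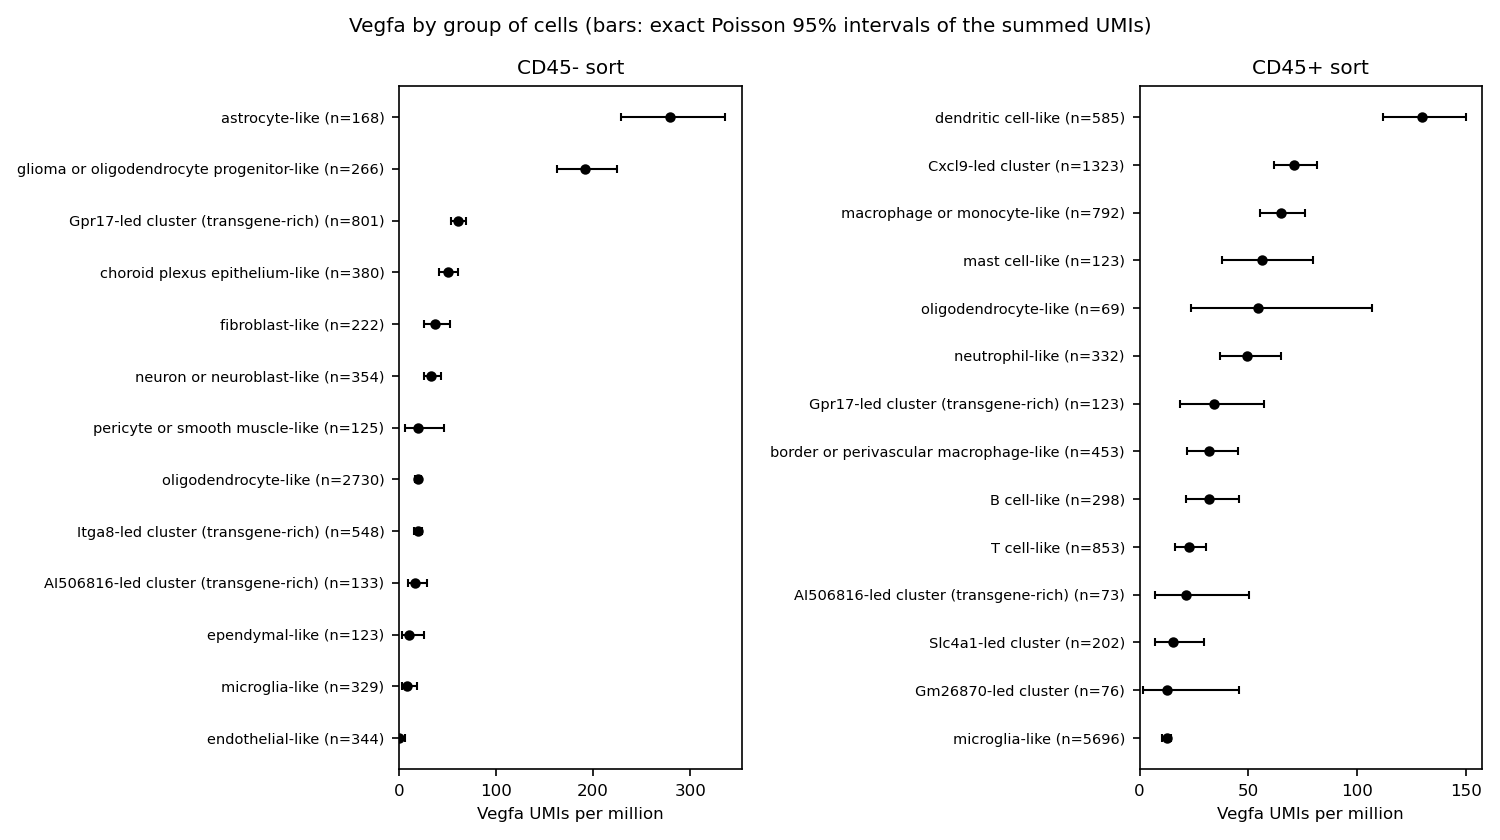
Vegfa in CPM (x axis, linear) in each cell group of at least 50 cells of the CD45- and CD45+ sorts, with 95% exact Poisson intervals that cover counting error only. Astrocyte-like cells lead the CD45- sort at 279 and endothelial-like cells sit at 0.

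The other CD45- groups followed at lower levels. The Gpr17-led transgene-rich cluster was at 60.5 (53.3 to 68.5, 253 UMIs), of which 36 UMIs came from 1 cell, and choroid plexus epithelium-like cells, the fluid-making epithelium of the ventricles, at 50.1 (41.3 to 60.2). Fibroblast-like cells at 36.9, the Cxcl9-led cluster at 33.7 (4 UMIs in 40 cells) and neuron or neuroblast-like cells at 33.2 came next, with intervals that overlap. The other transgene-rich clusters were low, with 19.0 in the Itga8-led and 16.8 in the AI506816-led cluster, oligodendrocyte-like cells were at 19.0, and the microglia-like cells of this sort were at 8.22. Outside endothelial-like cells, CD45- cells with a human EGFR UMI were at 36.4 CPM of Vegfa (32.5 to 40.6, 1298 cells) and those without one at 41.4 (38.3 to 44.7, 4954 cells). The order differed by stage, at 30.5 against 44.1 in the medium and 38.6 against 35.1 in the late sample, with overlapping intervals in both. A missing EGFR UMI does not show that a cell lacks the transgene.

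Endothelial-like cells held 0 Vegfa UMIs among 573867 in 344 cells, and 3 counts would be 5.23 CPM. Their Pgf and Angpt1 counts were 0 as well, and Vegfc had 6 UMIs in 3 cells. Of the VEGF ligands, Vegfb had the most UMIs there, at 34.9 CPM (21.3 to 53.8, 20 UMIs).

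Because large groups can outweigh high levels, the sources of the Vegfa UMIs differed from the order of the levels. Over the whole CD45- sort, of 978 Vegfa UMIs the Gpr17-led cluster gave 25.9%, progenitor-like cells 15.4%, oligodendrocyte-like cells 15.2%, choroid plexus epithelium-like cells 11.6% and astrocyte-like cells 11.1%. In the early sample oligodendrocyte-like cells gave 22.7%, choroid plexus epithelium-like cells 21.8%, progenitor-like cells 21.2% and astrocyte-like cells 15.6% of 339 UMIs. In the late sample the Gpr17-led cluster gave 46.4% of 390 UMIs (41.4 to 51.5, Clopper-Pearson) and the Itga8-led cluster 19.7%. The Gpr17-led cluster was 1.39%, 13.1% and 24.4% of early, medium and late CD45- cells, while its Vegfa level was 108, 46.3 and 65.9 CPM. The early value rests on 10 UMIs in 38 cells, and the early CD45- sort held 59 human EGFR UMIs in all. The name transgene-rich was set over all stages and may not hold for these early cells. With 1 sample a stage, these are descriptions with no test.

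**Figure D3:**
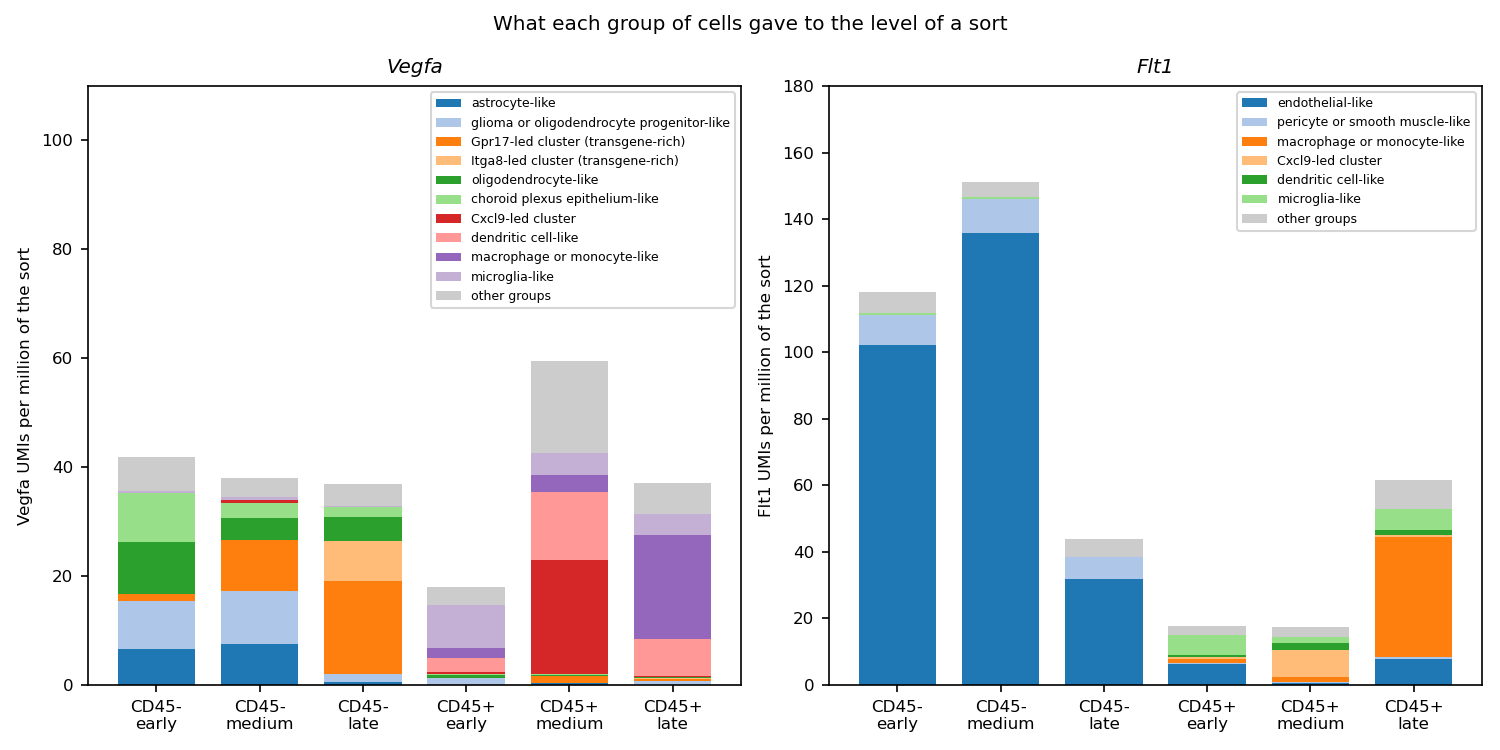
CPM of the sort contributed by each cell group to Vegfa and Flt1 (stacked bars from 0) in the early, medium and late samples of both sorts. In the late sample the Gpr17-led cluster holds 46.4% of the CD45- Vegfa UMIs and macrophage or monocyte-like cells hold 58.1% of the CD45+ Flt1 UMIs.

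Among CD45+ groups of at least 50 cells, Vegfa was highest in the dendritic cell-like group, at 130 CPM (112 to 150, 185 UMIs in 585 cells), with 76.1, 140 and 181 in the early, medium and late samples. This group met 4 of 10 dendritic cell markers, with Cd209a, Xcr1, Itgae and Ccr7 among its leading genes. Ly6i and Ms4a4c, from its next best list of macrophage or monocyte markers, were among them too. The name of this group matters: at a finer clustering (resolution 2) dendritic cell-like cells were at 25.6 and macrophage or monocyte-like cells at 107. At the resolution used throughout, the Cxcl9-led cluster, which met too few markers for a name, was at 71.0 (61.7 to 81.3), macrophage or monocyte-like cells at 65.0 (55.2 to 76.1), mast cell-like cells at 56.1 and neutrophil-like cells at 49.6, and the intervals of these neighbours overlap. This order pools stages that hold the groups unequally: macrophage or monocyte-like cells lay above the Cxcl9-led cluster in each stage and above dendritic cell-like cells in the early sample (114 against 76.1). The mast cell-like group met 4 of 6 mast cell markers, with Cpa3 and Tpsb2 among its leading genes. It was led by Elane, Prtn3, Ctsg and Mpo, and its next best marker list was that of neutrophils. Border or perivascular macrophage-like cells were at 32.1 (5.58, 65.7 and 59.1 in early, medium and late tumor), T cell-like cells at 22.8 and microglia-like cells, the resident macrophages of the brain, at 12.5 (10.5 to 14.7, 5696 cells). 2 smaller CD45+ groups had higher levels. The 24 fibroblast-like cells were at 443 (294 to 640), with 18 of 28 UMIs from 1 cell, and the 22 progenitor-like cells were at 303 (180 to 479, 18 UMIs).

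The main CD45+ source of Vegfa was a different group at each stage. In the early sample microglia-like cells gave 43.6% of 195 UMIs (36.5 to 50.9), in the medium sample the Cxcl9-led cluster gave 35.2% of 579 (31.3 to 39.3) and dendritic cell-like cells 21.1%, and macrophage or monocyte-like cells gave 51.5% of 200 late UMIs (44.4 to 58.6). The sizes of these groups moved alongside. Microglia-like cells were 76.6%, 20.9% and 45.8% of early, medium and late CD45+ cells, the Cxcl9-led cluster 2.12%, 30.0% and 0.995%, and macrophage or monocyte-like cells 1.30%, 3.36% and 28%. The Vegfa level of the Cxcl9-led cluster was 20.7, 76.6 and 18.9, and the medium value was 64.2, 83.3 and 66.6 within runs 1, 2 and 3. Macrophage or monocyte-like cells were at 114, 86.4 and 56.0.

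Vegfb was spread widely over both sorts. Choroid plexus epithelium-like cells were at 110 CPM (96.3 to 124), astrocyte-like cells at 102 (73.1 to 139), progenitor-like cells at 79.9 and oligodendrocyte-like cells at 35.4, and the intervals of the leading pair overlap. Their order differed by stage, with choroid plexus epithelium-like cells at 104.5, 88.0 and 162 and astrocyte-like cells at 69.0, 156 and 47.7. Among CD45+ groups, the Slc4a1-led cluster was at 89.6, microglia-like cells at 62.2 (57.8 to 66.9), macrophage or monocyte-like cells at 59.2, dendritic cell-like cells at 21.7 and neutrophil-like cells at 14.6. Microglia-like cells alone held 55.4% of the CD45+ Vegfb UMIs, at 62.2, 58.6 and 65.4 CPM in the early, the medium and the late sample. At the resolution used throughout, Vegfb and Vegfa thus took opposite orders in microglia-like and dendritic cell-like cells. CD45- cells outside the endothelial-like group with a human EGFR UMI were at 32.5 CPM of Vegfb and those without one at 52.2.

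Pgf, Vegfc and Angpt1 were concentrated in 222 fibroblast-like cells of the CD45- sort, the collagen-making cells of the meninges and vessel walls. They held 37 of 59 Pgf UMIs (62.7%, 49.2 to 75), 30 of 57 Vegfc UMIs (52.6%, 39.0 to 66.0) and 52 of 84 Angpt1 UMIs (61.9%, 50.7 to 72.3). The levels there were 42.6, 34.6 and 59.9 CPM. Vegfc was not led by this group in the medium sample, where it held 3 of 13 UMIs (10.1 CPM) and endothelial-like cells 5 (23.5 CPM), while early and late fibroblast-like Vegfc was at 52.0 and 41.3. Fibroblast-like Angpt1 was at 91.7, 36.9 and 45.4 in the early, the medium and the late sample, and the group was 3.63%, 4.06% and 2.56% of the sort. Pericyte or smooth muscle-like cells, the usual textbook source of Angpt1, held 2 Angpt1 UMIs in 125 cells (7.90 CPM, 0.956 to 28.5), close to the 8.72 CPM of neuron or neuroblast-like cells (16 UMIs).

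In the CD45- sort the receptors were mainly endothelial. The 344 endothelial-like cells had a summed endothelial marker level of 16540 CPM and came from 2 clusters, 320 cells led by Cldn5, a tight junction gene of the blood-brain barrier, and 24 cells led by Esm1, a gene of sprouting vessels. The Cldn5-led cluster met 10 of 10 endothelial markers and the Esm1-led cluster 7. They held 85.2% of the CD45- Flt1 UMIs (83.7 to 86.6), 75.1% of Kdr (72.3 to 77.8), 80.6% of Flt4 (71.2 to 88.1) and 92.7% of Tek (88.6 to 95.6). Flt1 was seen in 93.9% of these cells, Kdr in 61.3%, Tek in 28.2% and Flt4 in 14.8%, at a median depth of 1421 UMIs per cell. In oligodendrocyte-like cells of the same sort, set beside them at a median of 2470 UMIs, Flt1 was seen in 1.03% and Kdr in 1.39% of cells. Of the 211 cells with a Kdr UMI, 205 also had Flt1 and 63 also had Tek.

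Stage values of the receptors were compared within the endothelial-like cells, which numbered 152, 125 and 67 in the early, medium and late samples. Kdr was at 1341, 1223 and 1422 CPM, with a late over early ratio of 1.06 (0.878 to 1.28), and Tek at 417, 391 and 365, with a ratio of 0.876 (0.604 to 1.25). Both intervals include 1. Within runs 1, 2 and 3, however, Kdr was at 908.5, 1555 and 1218 early and at 1195, 2270 and 1822 late. It was higher late in each run, but the early and late intervals overlap in each. Early run 1 held 15 UMIs in 11 cells, and late runs 2 and 3 held 34 and 38 UMIs in 7 and 14 cells. The pooled Kdr ratio mixes runs that hold the stages unequally. Tek was at 182, 578 and 311 early and at 463, 66.8 and 144 late, from 1 to 58 UMIs each. Flt1 was at 3555, 4187 and 2626, and its late over early ratio of 0.739 (0.649 to 0.839) lay below 1. Within run 1, which held most of the late cells, it was at 2604 early (11 cells) and 2691 late, against 3928 and 2804 in run 2 and 3369 and 2206 in run 3, so the direction was not seen in run 1. Flt4 was at 94.6, 118 and 218, with a ratio of 2.30 (1.27 to 4.22) that rests on 28 and 22 UMIs. The intervals hold counting error and no spread between animals, and 46 of the 67 late cells came from run 1.

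**Figure D4:**
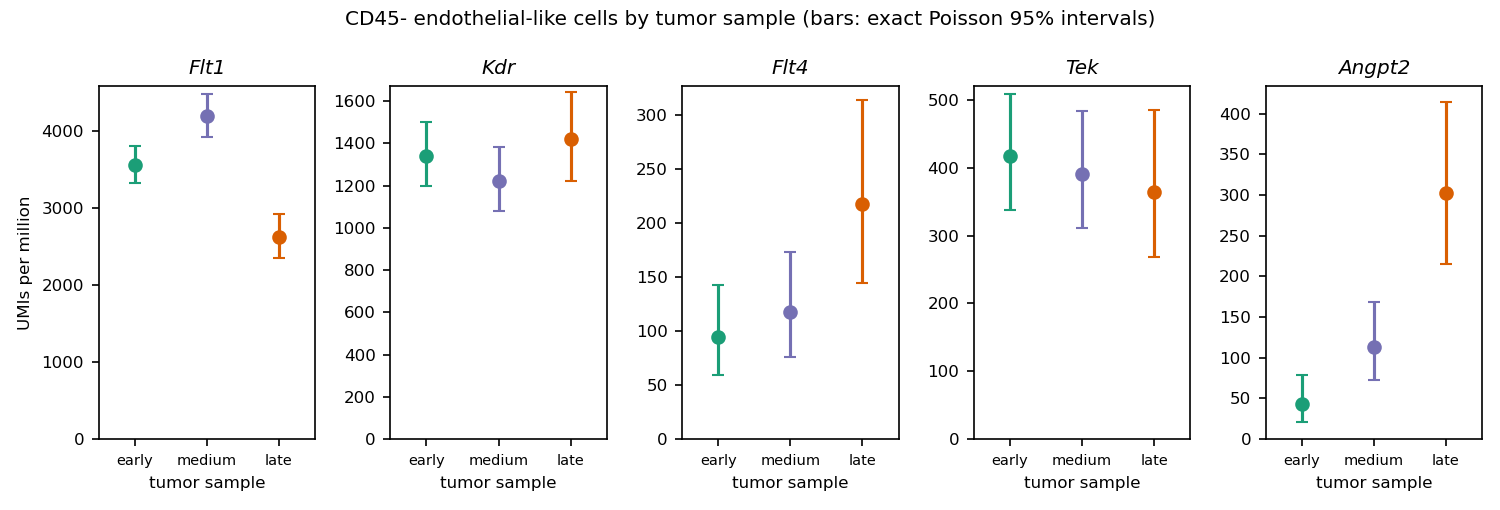
CPM of receptor genes and Angpt2 in endothelial-like cells of the CD45- sort in the early, the medium and the late sample (152, 125 and 67 cells), with 95% exact Poisson intervals for counting error only. Flt1 is at 3555, 4187 and 2626, Kdr lies between 1223 and 1422, and Angpt2 is at 43.0, 113 and 303, the last falling to 87.1 without 1 cell.

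Angpt2 in endothelial-like cells was at 43.0, 113 and 303 CPM in the early, the medium and the late sample, and 1 cell decided the late value. Its 73 UMIs lay in 15 of the 344 cells. Of 39 late UMIs in 5 cells, 29 were in a single Esm1-led cell with 13898 UMIs in all. Without that cell the late level was 87.1 (41.8 to 160). The medium value was uneven too, with 12 of its 24 UMIs in 1 of 6 cells and an interval of 72.35 to 168. Only the late sample was trimmed, so the late and medium levels cannot be ordered from these values. The late cells of run 1 held 38 of the 39 UMIs. Other CD45- groups held more Angpt2 UMIs in sum than the endothelial-like cells, which had 26.6%: the Itga8-led cluster had 51 UMIs in 36 cells (18.6%), fibroblast-like cells 48 (17.5%, 55.3 CPM) and choroid plexus epithelium-like cells 39 (14.2%).

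Between the endothelial clusters, Kdr and Flt4 were higher per UMI in the Esm1-led one and Tek lower, while Flt1 had an interval that includes 1. Kdr was at 3702 CPM in the Esm1-led and 1093 in the Cldn5-led cluster, a ratio of 3.39 (2.85 to 4.01), and Flt4 at 389 and 107, a ratio of 3.64 (2.04 to 6.23). Tek was at 123 and 421, a ratio of 0.292 (0.106 to 0.645), from 6 UMIs in the Esm1-led cells. Flt1 had a ratio of 0.931 (0.789 to 1.09). Angpt2 was at 695 and 74.3, a ratio of 9.36 (5.73 to 15.2), but its 34 UMIs in the Esm1-led cluster came from 2 cells. The Esm1-led cluster has 24 cells, with 10 early, 10 medium and 4 late. Both clusters were made from the expression of the same cells, so the ratios describe them and test nothing. Plvap and Cd300lg were also among the leading genes of the Esm1-led cluster. Whether its cells came from sprouting or from other vessels was not tested.

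Of the CD45- receptor UMIs outside the endothelial-like cells, the pericyte or smooth muscle-like group, the contractile cells around vessels, held 58.5% of 357 for Flt1, 42.4% of 250 for Kdr and 61.1% of 18 each for Flt4 and Tek. Oligodendrocyte-like cells held 28.4% of those Kdr UMIs. These 125 cells had Flt1 at 825 CPM, Kdr at 419, Flt4 at 43.4 and Tek at 43.4, which are 23.0%, 31.8%, 33.2% and 11.0% of the endothelial-like levels. All 10 endothelial markers were also present in this group, at 17.5% to 58.2% of their endothelial-like levels with a median of 23.5%. The part of endothelial RNA or of joined cells in these receptor values was not tested.

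Macrophage or monocyte-like cells held 31.8% of the 694 CD45+ Flt1 UMIs, most of them in the late sample. This group met 3 of 11 macrophage or monocyte markers, and its leading genes were Rnase2a, Arg1, Atp6v0d2, Gpnmb and Spp1. Its name does not tell monocytes from macrophages. FLT1 is a known receptor of monocytes, in which it guides migration. The level was 92.7 CPM (80.9 to 106, 221 UMIs), with a UMI in 17.3% of 792 cells at a median of 2637 UMIs per cell. Neutrophil-like cells, at a median of 2314 UMIs, had Flt1 in 1.81% of cells and 6.80 CPM, microglia-like cells were at 9.64 and T cell-like cells at 11.7. The Slc4a1-led cluster was at 51.7, with 92.2 (59.1 to 137) in the late sample, the Cxcl9-led cluster at 30.1, mast cell-like cells at 32.6 and dendritic cell-like cells at 26.7, against 4.96 in CD45- oligodendrocyte-like cells. Summed endothelial markers were at 50.3 CPM in macrophage or monocyte-like cells, 323.5 in neutrophil-like, 148 in T cell-like and 36.8 in microglia-like cells. In the whole CD45+ sort this sum did not follow the endothelial-like cells, at 78.1, 154 and 103 in the early, medium and late samples. These samples held 12, 3 and 5 such cells, with Cldn5 at 4.16, 0.72 and 7.43 CPM. The sum is thus no clean measure of endothelial RNA there, and the part of endothelial RNA in the Flt1 values above was not tested. Macrophage or monocyte-like Kdr was at 2.94, and Tek had 0 UMIs there, where 3 counts would be 1.26.

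Macrophage or monocyte-like Flt1 was at 70.3, 41.8 and 105 CPM in the early, the medium and the late sample, and the late value was 120, 113 and 93.7 within runs 1, 2 and 3. In the late CD45+ sum these cells gave 58.1% of 332 Flt1 UMIs (52.6 to 63.5) and 5 endothelial-like cells gave 12.7%. In the early sum endothelial-like cells gave 34.7% and microglia-like cells 32.1%, and in the medium sum the Cxcl9-led cluster gave 46.8% of 169. The late CD45- sum still had 72.8% of its Flt1 UMIs in endothelial-like cells, against 86.4% in the early and 89.8% in the medium one. Kdr in the CD45+ sort was thinly spread, with 50.2% of its 239 UMIs in microglia-like cells at 10.3 CPM. CD45- oligodendrocyte-like cells were at 9.04 (7.06 to 11.4). They do not set a floor, as Kdr was at 1.68 (0.673 to 3.45) in the Gpr17-led cluster and 10.1 in progenitor-like cells of that sort. The source of the Kdr UMIs in microglia-like cells was not tested.

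Of the co-receptors and ligand relatives of the pathway, 1 of 8 genes tested was higher and 3 were lower in CD45+ cells (median log2 fold change -0.29), against 20.4% and 25.7% over all genes. Nrp1, a co-receptor for VEGF-A, was higher in CD45+ cells by 1.82 (SE 0.20, edgeR adjusted p 0.000402), in contrast to Kdr, and Ptprb, a phosphatase that dampens TEK, was lower by -3.90 (adjusted p 0.00117). Tie1, the partner receptor of TEK, had a fold change of -0.81 (adjusted p 0.0707, edgeR). In endothelial-like cells the most abundant members were Ptprb at 1154, Itgb1, an integrin subunit, at 467 and Nrp1 at 331 CPM. Nrp1 was at 1575 in the Esm1-led and 215 in the Cldn5-led cluster.

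Of 15 genes acting downstream of endothelial receptors, 8 were higher and 3 lower in CD45+ cells (median 0.79), where 20.4% and 25.7% of all genes were. Nos3, endothelial nitric oxide synthase, was lower by -2.45 (edgeR adjusted p 0.00561) and Rasip1, a regulator of vessel lumens, by -2.04 (adjusted p 0.00227). The flow-responsive factors Klf2 and Klf4 were the most abundant members in endothelial-like cells, at 1479 and 1425 CPM, with Rasip1 at 281, yet both were higher in the CD45+ sort, by 2.15 and 1.13. Several listed genes, such as Sh2d2a and Dok2, are expressed by leukocytes. Both were among the genes higher in CD45+ cells, by 5.05 and 6.10, and had 0 UMIs in endothelial-like cells. The count of 8 is thus not a measure of signalling in endothelial-like cells.

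Of 13 tip cell and sprouting vessel genes tested, 10 were lower and 3 higher in CD45+ cells (median -2.49), while 25.7% of all genes were lower and 20.4% higher. With no replicate block 7 were lower. Apln (apelin), Plvap, a protein of leaky vessels, and Dll4, a Notch ligand of tip cells, were lower by -4.63, -3.56 and -2.38 (edgeR adjusted p 0.000352, 0.000918 and 0.00569), and Pdgfb, Cd34 and Ramp3 were higher. Ramp3 was not called without TMM scaling or without the medium or the late sample (edgeR adjusted p 0.0614, 0.0986 and 0.0779). In endothelial-like cells Cd34, Col4a1 and Col4a2, the last pair being collagens of the vessel basement membrane, were the most abundant at 779, 697 and 554 CPM. Of the 13 members with at least 50 UMIs, 12 were higher per UMI in endothelial-like cells than in other CD45- cells, where 33.3% of all such genes were, and 12 were higher in the Esm1-led than in the Cldn5-led cluster, where 26.1% of all were. The clusters were formed without these genes, but the Esm1-led one is named after a listed gene that is among those higher in it. Plvap, also listed, was among its leading genes. With 48896 UMIs in that cluster, 1 UMI is 20.5 CPM, so scarce genes can fall to 0 there and lower the 26.1%. The counts between the clusters are therefore descriptions. Esm1 and Apln were also in astrocyte-like cells, at 81.8 and 145.8 CPM, the group with the highest Vegfa level in the sort.

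Of 17 hypoxia response genes, 5 were higher and 5 lower in CD45+ cells (median -0.11), beside 20.4% and 25.7% of all genes tested. Without TMM scaling 3 were higher and 7 lower. Vegfa is itself a known hypoxia target. Hk2, a hexokinase, was higher by 3.87 (edgeR adjusted p 0.000142), and Ndrg1 and Epas1 (HIF-2 alpha) were lower by -4.37 and -3.16 (adjusted p 0.000120 and 0.000799). The most abundant members over all cells were Ndrg1 at 275.5, Pgk1 at 234.5 and Ldha at 220.9 CPM. In endothelial-like cells the glucose transporter gene Slc2a1 was at 2111 in the Cldn5-led and 20.5 in the Esm1-led cluster, the reverse of Kdr.

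Over 27 profiles of a cell group and sort with at least 50 cells, the genes most like each listed gene were found by the Pearson correlation of log2(CPM + 1). Flt1 was most like Pecam1 (r = 0.876), Zfp366 (0.818) and Sox17 (0.814), Kdr most like Slc38a5 (0.862), Adgrf5 (0.852) and Ptprb (0.815), and Tek most like Sox17 (0.963), Esam (0.941) and Sox18 (0.927). Angpt2 was most like Itm2a (0.892), Bcam (0.886) and Igfbp7 (0.884). Vegfa and Vegfb had weaker best matches, with Tank (0.697), Osgin2 (0.690) and Tm7sf2 (0.652) for Vegfa and Abhd6 (0.785), Plekhb2 (0.759) and Mpv17l (0.758) for Vegfb. Among the listed genes, Flt1 and Kdr had r = 0.686 and Flt1 and Tek 0.781, while Vegfa had -0.549 with Kdr and -0.410 with Flt1. The profiles share libraries and groups, so these values are descriptions.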

How the data were processed

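Single cells of the CD45+ and CD45- sorts of early, medium and late tumors were measured by inDrop. The deposited table holds UMI counts per gene and cell that the authors made with RapMap in bcbio-nextgen against the GRCm38 transcriptome (Ensembl) with transgene sequences added (the labels name mm10), and the deposited cell names (unit other) gave library, run and barcode. The methods state that ambient RNA and doublets were removed, and whether this preceded the table is not given in the sources used here. A further allele that the labels give for all mice is not reported here. All 20811 cells were mapped to a library, and 0 columns of cells were left unused.

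Cells with at least 500 UMIs, 500 genes and at most 20% mitochondrial UMIs were kept (17894 cells). A simulated-doublet caller marked 113 of the 17786 cells in libraries large enough to test (0.635%, 2 libraries not tested), which were removed, leaving 17781. Counts were scaled to 10000 per cell, and 2000 variable genes, without the 10 genes and the pathway lists, gave 40 principal components, 20 neighbours and 32 Leiden clusters at resolution 1 (Python 3.11.15, scikit-learn 1.9.0, leidenalg 0.10.2). A cluster took the name of the marker list with the highest mean log2 fold among lists with at least 3 markers 2-fold higher and in at least 10% of cells. A cluster with more markers of another list than of its own among its top 10 genes stayed unnamed. In all, 6 clusters with 3390 cells have no name: 5 met no list, and the Gpr17-led cluster met 11 of 11 progenitor markers but had more markers of committed oligodendrocyte precursors among its top 10 genes.

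Raw counts were summed per tumor sample and sort. Sorts were compared with edgeR 4.0.16 in R 4.3.3 (quasi-likelihood F test, TMM, filterByExpr by sort, robust), blocked by tumor sample, with two-sided tests and a Benjamini-Hochberg adjusted p under 0.05 as threshold. Sorts of 1 sample share a tumor, and their deviations correlated with r = 0.377, 0.274 and 0.297 (early, medium, late). Folds are CD45+ over CD45-. The step was tested on simulated data with known folds. Intervals are exact Poisson, exact conditional (ratios) or Clopper-Pearson at 95%, and 3 counts set the floor for a count of 0. Stages, with 1 sample each, were not tested.

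All 10 genes are described, with the 3 most abundant genes per pathway list in endothelial-like cells (hypoxia: all cells), and the 3 most correlated genes per listed gene with at least 200 UMIs. Other named pathway genes were chosen after their values were seen. The members and lists were chosen with earlier results of these data known. Alternatives were DESeq2 1.42.0, no TMM, no filter on low counts, no block, leaving out each sample, every deposited cell, cells of the other sort's classes removed, doublet handling, clustering resolution, a mean over cells and single runs. Coordinates are from GENCODE M21 (GRCm38), and promoters from RefSeq (GRCm38.p6).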

Additional observations from a re-analysis of the deposited data

Results flagged for a closer look

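The CD45+ over CD45- ratio of Vegfa in CPM was 0.431 in the early sample (exact conditional interval 0.360 to 0.516), 1.57 in the medium sample (1.35 to 1.83) and 1.01 in the late sample (0.847 to 1.20). It drew attention because the early and medium intervals lie on opposite sides of 1. Within runs 1, 2 and 3 it was 0.947, 0.397 and 0.418 in the early sample and 1.24, 1.80 and 1.30 in the medium one. The interval includes 1 in early run 1 (0.488 to 1.72) and in medium runs 1 (0.868 to 1.79) and 3 (0.939 to 1.80). With 1 sample a stage, the difference between stages was not tested.

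The same ratio of Flt1 in early tumor was 0.151 (0.129 to 0.177), medium tumor had 0.115 (0.0971 to 0.136) and late tumor 1.41 (1.22 to 1.62), which lies on the other side of 1. The late ratio was 1.50, 2.02 and 1.73 within runs 1, 2 and 3, and the early one 0.665 (0.289 to 1.36), 0.116 and 0.141, and in run 1 both the early and the late interval (0.965 to 2.24) include 1. The difference between stages was not tested. The share of endothelial-like cells in the CD45- sort was 5.58%, 7.80% and 2.95% and that of macrophage or monocyte-like cells in the CD45+ sort 1.30%, 3.36% and 28% at the early, medium and late stage. Their part in the ratio was not tested.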

How the results depend on the processing

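The 4 genes called lower in CD45+ cells (Kdr, Flt4, Angpt2 and Tek) became 7 with DESeq2, 7 without TMM scaling and 7 with every gene of at least 1 count, and 5 with no replicate block, where Vegfc also passed (log2 fold change -1.56). Removing cells of the other sort's classes also gave 5, again with Vegfc (-2.72, edgeR adjusted p 0.0114). Leaving out a tumor sample gave 4 to 6. Of the named genes called, Ramp3 lost its call without TMM scaling and without the medium or the late sample, and Tie1 gained one without TMM scaling. With no replicate block, 7 tip cell genes were lower. Vegfa changed sign without TMM scaling (-0.17) and without the medium sample (-0.28), and ran from -0.28 to 0.78 when 1 sample was left out. Over all genes, 3759 were higher and 4744 lower, against 2589 and 6559 without TMM scaling and 3470 and 4398 with no replicate block, which shifts the balance of directions in the former. Without TMM, 6 downstream genes were higher and 5 lower (against 8 and 3), and 3 hypoxia genes were higher and 7 lower (against 5 and 5). Leaving out a sample gave 1 to 2 co-receptors higher and 1 to 3 lower, and 3 to 6 hypoxia genes higher and 2 to 4 lower.

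The endothelial-like share of CD45- Flt1 UMIs was 83.4% with every deposited cell, 87.1% with the top 5% of doublet scores removed, 90.5% as a mean over cells, and 82.6% and 86.7% in runs 1 and 2. That of Kdr was 83.9% as a mean over cells, 71.1% in run 1 and 78.2% in run 3, and that of Tek 98.4% in run 1. The transgene-rich share of CD45- Vegfa UMIs was 50.6% at resolution 0.5, 24.8% as a mean over cells and 52.4%, 24.5% and 28.5% in runs 1, 2 and 3, against 35.2%. The macrophage or monocyte-like share of CD45+ Flt1 UMIs was 24.6% as a mean over cells and 45.0% in run 1, against 31.8%. The Cxcl9-led share of CD45+ Vegfa UMIs was 25.8% in run 2 and 13.9% in run 3, against 21.6%. Astrocyte-like Vegfa was at 220, 353 and 211 in runs 1, 2 and 3. Late endothelial-like Angpt2 was at 102 (doublet scores), 97.9 (mean over cells), 48.0 (run 3) and, in an alternative chosen after seeing the data, 87.1 without the cell with the most Angpt2 UMIs. The runs hold different stages, and the cause of these shifts was not tested. At resolution 0.5 the endothelial and pericyte clusters merged without a name and gave no value. Counts of 5 UMIs or fewer limit Tek, Flt4 and Angpt1 in most CD45+ groups.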
